A study of Schizosaccharomyces pombe with 6 samples.

Results

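Among the transcripts that were lower on average in fission yeast cells without Siw14 are several whose products have had little study. The 7 genes described here were chosen from the 6988 loci of the count table by their systematic IDs, because each was lower on average in *siw14*∆ than in wild type and varied among the 3 wild-type cultures. They are *SPAC15E1.02c*, *SPAC637.03*, *SPCC70.08c*, *SPAC26H5.09c*, *SPACUNK4.17*, *tsp0* (SPBC725.10) and *lsd90* (SPBC16E9.16c). They were chosen on these same libraries, so their fold changes and their spread in wild type are a description and carry no test. Poly(A)+ RNA was sequenced from 3 cultures of the parental *Schizosaccharomyces pombe* strain, which has mating type h-, and from 3 cultures of an h- strain in which the *siw14* gene is replaced by the HygMX marker. All cultures grew vegetatively in the rich medium YES at 30°C and were taken in logarithmic phase, and each genotype was represented by 1 lab strain. The libraries are written WT1, WT2 and WT3 and del1, del2 and del3 (*siw14*∆), and values follow that order. All 7 genes passed the filter on low counts, which kept 5774 loci.

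Siw14 is a cysteinyl-phosphatase that removes β-phosphates from inositol pyrophosphates, small signaling molecules that in fission yeast act on phosphate homeostasis and on the 3′ processing and termination of RNA polymerase II transcripts. *SPAC26H5.09c* encodes an oxidoreductase of the Gfo/Idh/MocA family, enzymes that use a nicotinamide cofactor and often act on sugars, and the study places it in NADPH regeneration. *SPACUNK4.17* encodes a dehydrogenase family protein that binds NAD. *SPCC70.08c* encodes a methyltransferase, which in general moves a methyl group from S-adenosylmethionine onto a substrate. *tsp0* encodes a TspO-like protein; members of that family are small membrane proteins that in other organisms bind tetrapyrroles such as heme precursors. *SPAC15E1.02c* and *SPAC637.03* encode proteins with a domain of unknown function, and *lsd90* encodes the protein Lsd90.

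Library totals over genes ran from 12875286 to 14583056 counts. The *siw14* RNA had 2014 to 2414 counts in the wild-type and 12 to 14 in the *siw14*∆ libraries, matching the labels of all 6 libraries. The factors from the trimmed mean of M values (TMM) were 0.864, 0.976 and 0.984 in WT1, WT2 and WT3 and 1.03 to 1.11 in the *siw14*∆ libraries. A normalized count below is a read count divided by the effective library size, which is the total times its TMM factor, and brought to the scale of an average library. On the first principal component of log2 CPM (counts scaled to the effective library size, on a log scale), WT1 stood at −31.2, WT2 and WT3 at −3.61 and −9.64, and the *siw14*∆ libraries between 13.4 and 15.99. Any pair of replicates differed by more than read sampling noise, with a chi-square of 8.83 to 38.1 per degree of freedom.

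The oxidoreductase gene *SPAC26H5.09c* was the most abundant of the 7. It had 8569, 3510 and 7083 counts in WT1 to WT3 and 3806, 3919 and 3456 in del1 to del3. Normalized, these were 9401, 3615 and 7391 against 3502, 3570.0 and 3497. Thus WT1 and WT3 were high, and WT2 lay next to the *siw14*∆ libraries, 1.03-fold over their mean. The *siw14*∆ libraries were within 1.02-fold of each other, and the standard deviation (SD) of log2 CPM among them, 0.02, was smaller than at all but 1.71% of the loci kept. Among the wild-type libraries the SD was 0.72. Its log2 fold change (*siw14*∆ relative to wild type) was −0.95 with a standard error (SE) of 0.25.

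The dehydrogenase family gene *SPACUNK4.17* had normalized counts of 1031, 368 and 619 in WT1 to WT3 and 344, 308 and 299 in del1 to del3. It is the gene for which WT1 and WT3 were farthest apart, 1.67-fold, and WT3 was 1.68-fold over WT2. The 3 wild-type libraries all stood above the *siw14*∆ libraries, although WT2 was only 1.16-fold over the *siw14*∆ mean. The means were 673 ± 335 in wild type and 317 ± 24.1 in *siw14*∆ (SD, n = 3 each), and the log2 fold change was −1.08 (SE 0.29). *SPACUNK4.17* and *SPAC26H5.09c* were the 2 of the 7 genes in which every *siw14*∆ library was below every wild-type library. Over all loci kept this held for 19.2% (1107 of 5774).

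The methyltransferase gene *SPCC70.08c* had normalized counts of 1463, 425 and 1152 in WT1 to WT3 and 476, 523 and 513 in del1 to del3. Here the lowest library of all was WT2, at 0.844 of the *siw14*∆ mean, whereas WT1 and WT3 were 3.44-fold and 2.71-fold over WT2. The means of 1014 ± 533 and 504 ± 24.9 (SD, n = 3 each) correspond to a log2 fold change of −1.01 (SE 0.33).

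The TspO-like gene *tsp0* had normalized counts of 1649, 589 and 1305 in WT1 to WT3 and 557, 609 and 630 in del1 to del3. WT2 fell within the *siw14*∆ range, while WT1 and WT3 lay above it. The means were 1181 ± 541 and 599 ± 38.0 (SD, n = 3 each), with a log2 fold change of −0.98 (SE 0.28). *lsd90* behaved alike at a lower level, with 725, 222 and 510 normalized counts in wild type against 228, 232 and 292 in *siw14*∆. Its lowest library was again WT2. The means of *lsd90* were 486 ± 252 and 251 ± 36.0 (SD, n = 3 each), and the log2 fold change was −0.95 (SE 0.32). It was −0.58 (SE 0.30) with a loess trend on exon GC content removed and −0.53 without WT1.

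The uncharacterized *SPAC15E1.02c* showed the largest difference of the 7. It had 544, 153 and 425 counts in WT1 to WT3 and 154, 164 and 177 in del1 to del3, or 597, 158 and 443 against 142, 149 and 179 normalized counts. WT1 was 3.79-fold over WT2, which was at 1.01 times the *siw14*∆ mean. Its log2 fold change was −1.35 (SE 0.36), the seventh lowest of the 5774 loci, *siw14* itself included. *SPAC637.03* departed from the others in that WT3 was its highest library, with 962, 286 and 1082 normalized counts in WT1, WT2 and WT3. It was also the least even in the mutant, with 382, 249 and 387 normalized counts. Its lowest library was del2, and its log2 fold change was −1.20 (SE 0.38).

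**Figure D1:**
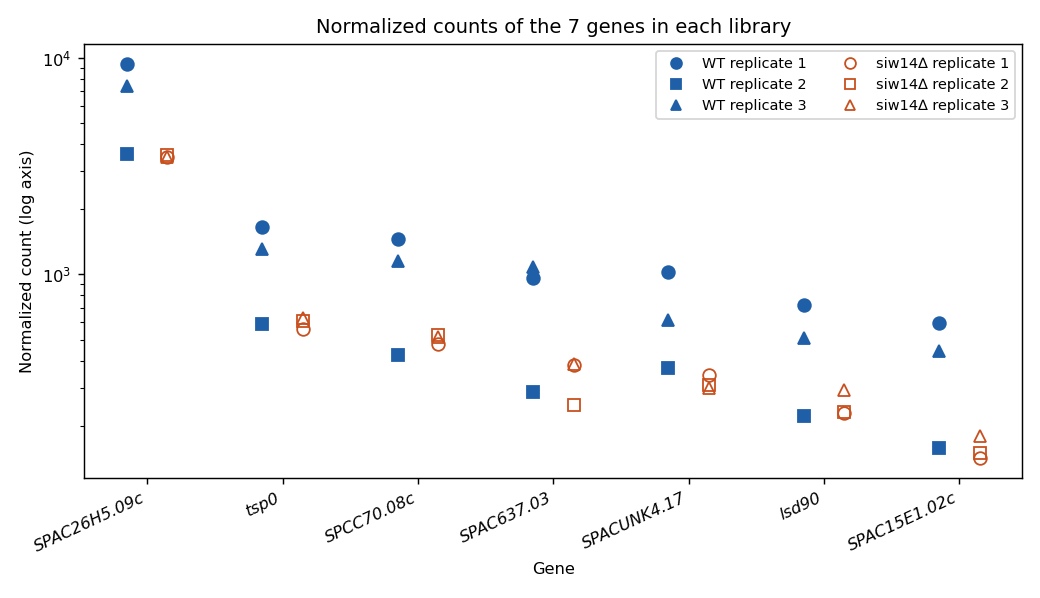
Normalized counts (log axis) of the 7 genes in the 3 wild-type (filled blue) and 3 *siw14*∆ libraries (open orange), ordered by their wild-type mean; each symbol is 1 library. WT2 (filled square) lies beside the *siw14*∆ libraries at every gene, for example at 589 against 557 to 630 for *tsp0*, while WT1 and WT3 lie above all of them.

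Compared per length, the 7 genes spanned a wide range of levels. As RPKM, counts scaled by ASM294v3 exon length and library total, *SPAC26H5.09c* was at 294 in wild type and 174 in *siw14*∆ on average. *tsp0* (92.3 and 53.7) and *SPCC70.08c* (84.0 and 48.0) followed, then *SPAC15E1.02c* (46.3 and 20.9), *SPAC637.03* (37.1 and 18.5) and *SPACUNK4.17* (25 and 13.7). *lsd90* was the lowest at 14.4 and 8.56, over a gene model that begins at its coding sequence, and the model of *SPCC70.08c* is incomplete at its 3′ end. On this scale each gene below *SPAC26H5.09c* overlapped its neighbors in the order across the wild-type libraries, from *tsp0* (48.5 to 120.0) and *SPCC70.08c* (37.2 to 113) over *SPAC15E1.02c* (19.3 to 64.8), *SPAC637.03* (14.3 to 54.5) and *SPACUNK4.17* (14.5 to 36) down to *lsd90* (6.96 to 20.1), a spread that the 7 genes shared through the low WT2. Across the *siw14*∆ libraries, *tsp0* (51.9 to 56.0), *SPCC70.08c* (47.1 to 48.4) and *SPAC15E1.02c* (19.4 to 23.7) did not overlap. *SPAC637.03* (13.2 to 21.6) overlapped both *SPAC15E1.02c* and *SPACUNK4.17* (12.7 to 15.4), and *lsd90* (7.70 to 9.88) lay below them. Only *SPAC26H5.09c*, from 164 to 378 in wild type, did not overlap any of the other 6 in that genotype.

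The common feature of the 7 profiles was the place of WT2. It was the lowest wild-type library for all 7 genes, as it was for 29.4% of the loci kept (1697 of 5774). In 3 of the genes (*SPAC15E1.02c*, *SPAC637.03* and *tsp0*) it was inside the range of the *siw14*∆ libraries, and in 2 (*SPCC70.08c* and *lsd90*) it was below them all. The order WT1 over WT3 over WT2 held for 6 of the 7, with *SPAC637.03* as the exception, and for 18.3% of all loci. Of the 4702 loci with a wild-type mean of at least 100 normalized counts, 35 (0.744%) had both WT1 and WT3 at least 2-fold above WT2. All of the 7 but *SPACUNK4.17* were among these 35. At 1.5-fold the number was 89 (1.89%), and all 7 were among them. The genes were chosen for varying among these wild-type libraries and for being lower in *siw14*∆, so these shares describe them and carry no test. The mean of WT1 and WT3 was 2.38-fold (*SPAC26H5.09c*) to 3.32-fold (*SPAC15E1.02c*) over the *siw14*∆ mean, whereas WT2 was 0.844-fold to 1.16-fold of it.

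Spread within a genotype differed accordingly. In wild type the SD of log2 CPM ran from 0.72 to 1.06 among the 7 genes, with a median of 0.87 against 0.18 over all loci, and at each gene it exceeded that of at least 97.3% of the loci. This is the spread by which the genes were chosen. In *siw14*∆, whose spread the choice of genes does not name, the median SD was 0.11 for the 7 genes and 0.11 for all loci. It ranged from 0.02 for *SPAC26H5.09c*, 0.07 for *SPCC70.08c* and 0.09 for *tsp0* up to 0.20 for *lsd90* and 0.36 for *SPAC637.03*, which was above 94.2% of the loci.

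**Figure D2:**
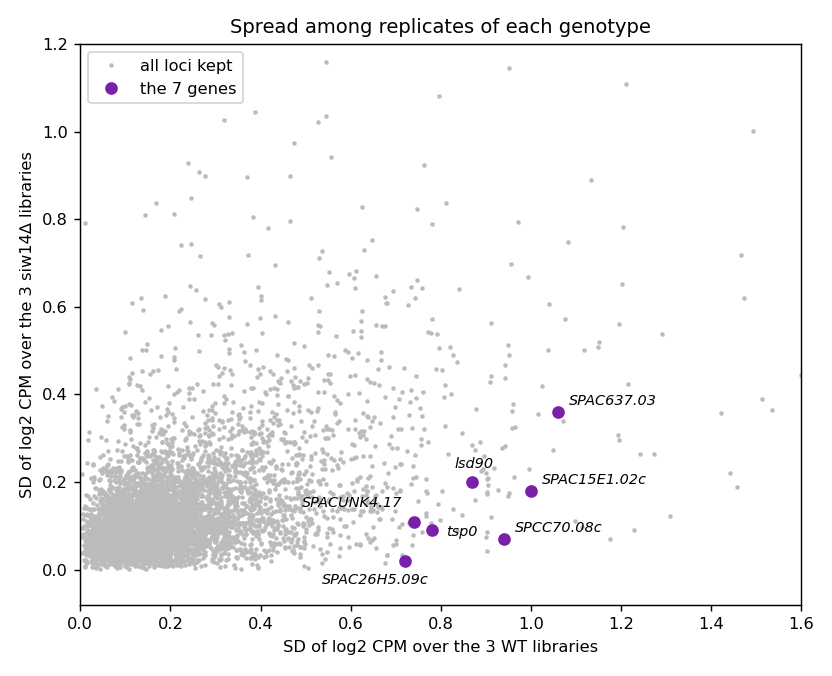
SD of log2 CPM over the 3 wild-type libraries (horizontal) and over the 3 *siw14*∆ libraries (vertical) for the loci kept (grey) and the 7 genes (purple); 9 loci lie beyond the axes. The 7 genes lie to the right, at 0.72 to 1.06, but spread vertically from 0.02 to 0.36.

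With all 6 libraries, the log2 fold changes of the 7 genes lay between −1.35 and −0.95 with a median of −1.01, where the median of all loci was 0.01. At an adjusted p of at most 0.05 (edgeR's quasi-likelihood test, Benjamini-Hochberg over all loci kept), 6 of the 7 were called lower and *lsd90* was not. At this threshold 4.99% of all loci were called lower. The criteria of the study add a 2-fold change and a wild-type mean of at least 100 normalized counts. Applied to the edgeR fit, 4 of the 7 genes passed (*SPAC15E1.02c*, *SPAC637.03*, *SPCC70.08c* and *SPACUNK4.17*), as did 0.208% of all loci (12 of 5774). In that fit *tsp0* and *SPAC26H5.09c* missed the 2-fold criterion only. The study used DESeq2, and its text names *SPAC15E1.02c*, *SPAC637.03*, *SPCC70.08c* and *SPAC26H5.09c* among the downregulated genes. In the DESeq2 fit made here, *SPAC15E1.02c* was at −1.38 (adjusted p = 0.0389), *SPACUNK4.17* at −1.12 (0.0315) and *SPAC26H5.09c* at −0.98 (0.0426). The other 4 genes were not called in that DESeq2 fit. These were *SPAC637.03* at −1.23 (adjusted p = 0.0889), *SPCC70.08c* at −1.04 (0.0949), *tsp0* at −1.01 (0.0541) and *lsd90* at −0.99 (0.104). The calls of the study for *SPAC637.03* and *SPCC70.08c* were thus not reproduced by DESeq2 here. The numbers of genes called or passing follow from how the genes were chosen.

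The number of calls turned on single libraries. Without WT2, all 7 genes were called, at log2 fold changes of −1.74 to −1.26. Without WT1 none was, at −1.0 to −0.53, and without WT3 none was, at −1.23 to −0.84. None was called without del1, del2 or del3, with log2 fold changes between −1.46 and −0.89. In those 5 fits without a call, 4 to 7 of the genes were lower at an unadjusted p under 0.05 by edgeR. Over the 5799 to 5827 loci of the same fits, 1734 to 2188 were under it in either direction. The loci called lower over the whole table moved with the calls of the 7 genes. They numbered 48, 717 and 44 without WT1, WT2 and WT3, and 1 without each *siw14*∆ replicate. DESeq2 called 3 of the 7, limma-voom 2, and edgeR on library totals only called 1.

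**Figure D3:**
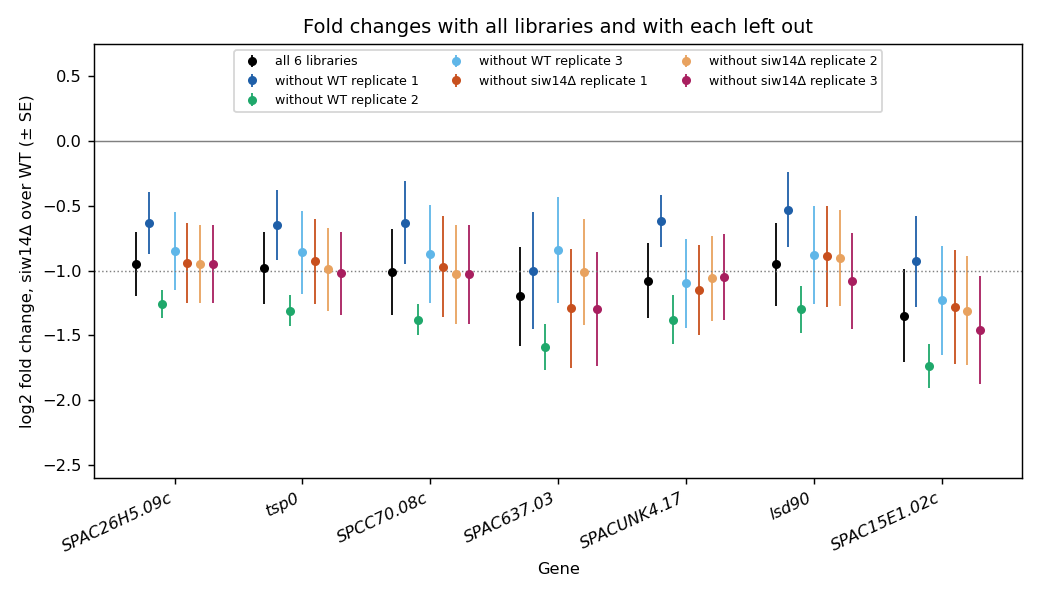
Log2 fold change, *siw14*∆ relative to wild type (points), with its SE (bars) for each of the 7 genes, with all 6 libraries (black) and with each library left out in turn; the dotted line marks a 2-fold decrease. Without WT2 (green) the values are the lowest, −1.74 to −1.26, and without WT1 (dark blue) they are nearest to 0 for all genes but *SPAC637.03*, whose value is nearest to 0 without WT3.

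The 7 genes are spread over the genome, with 4 on chromosome I, 2 on chromosome II and 1 on chromosome III, and no 2 of them are neighbors. Of 20 annotated loci that overlap one of them or are nearest on either side in the RefSeq annotation of build ASM294v3, 12 were in the count table and 9 passed the filter. None of the 9 was called lower by edgeR, DESeq2 or limma-voom, which called 4.99%, 12.8% and 4.42% of all loci lower. Beside such shares, 0 of 9 does not set the neighbors apart. At an unadjusted p under 0.05, 0 were lower, where by edgeR 2373 of 5774 loci were under it in either direction. Beside *SPAC15E1.02c*, the divergent ribosomal protein gene *rpl42* had a log2 fold change of 0.10 (SE 0.13). *ypp1*, downstream of *SPAC637.03*, was at 0.00 (SE 0.10), *pvg1*, downstream of *SPACUNK4.17* and encoding a pyruvyl transferase of the Golgi, at −0.16 (SE 0.10), and *SPBC16E9.15*, downstream of *lsd90*, at −0.09 (SE 0.09).

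At the *SPCC70.08c* locus 2 neighbors were called higher. The noncoding locus *SPNCRNA.1292*, whose span covers all 863 bases of *SPCC70.08c* on the opposite strand, had normalized counts of 83.4, 116 and 69.9 in WT1 to WT3 and 140, 141 and 157 in del1 to del3. Every *siw14*∆ library was thus above every wild-type library, and within wild type it was highest in WT2, where *SPCC70.08c* was lowest. Its log2 fold change was 0.70 (SE 0.21, adjusted p = 0.0392 by edgeR). The thymidylate kinase gene *tmp1*, downstream of *SPCC70.08c*, rose from 146, 166 and 161 to 213, 238 and 231 normalized counts, a log2 fold change of 0.53 (SE 0.14, adjusted p = 0.0323 by edgeR). Over all loci 16.7% (964 of 5774) were called higher. That number was 785, 1204 and 640 without WT1, WT2 and WT3, 378 without del1 and 0 without del2 or del3. Both calls held without WT2 (adjusted p = 0.00878 and 0.0233 by edgeR) and that of *tmp1* without WT1 (adjusted p = 0.0320), but neither held without WT3 (0.0843 and 0.0511) or any *siw14*∆ replicate, and that of *SPNCRNA.1292* not without WT1 (0.0669). With a loess trend on abundance removed, neither was called, at log2 fold changes of 0.35 for *SPNCRNA.1292* and 0.14 for *tmp1* (adjusted p = 0.275 and 0.454 by edgeR).

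Other members also lie opposite an annotated transcript. *SPNCRNA.857* shares 1531 bases with *SPACUNK4.17* and had normalized counts of 151, 128 and 170 in wild type and 148, 187 and 146 in *siw14*∆, with overlapping groups and a log2 fold change of 0.10 (SE 0.18). *php2*, which encodes a subunit of the CCAAT-binding factor, shares 1277 bases with *tsp0*. It had normalized counts of 1335, 1423 and 963 in wild type and 955, 1291 and 1136 in *siw14*∆, a log2 fold change of −0.14 (SE 0.15), and did not show the low WT2 of *tsp0*. *SPAC637.03* and *SPAC26H5.09c* overlap the opposite-strand *SPNCRNA.4055* (1046 bases) and *SPNCRNA.3851* (1757 bases), which were not analysed here. The libraries were stranded, but whether the counting used strand was not stated in the sources used, and if not, reads of such overlapping loci cannot be told apart.

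The upstream sequences of the 7 genes were searched on both strands for 5 short motifs, in windows from 250 bases before to 50 bases after the annotated transcript start (for *lsd90*, whose model is incomplete at that end, the coding start). The letters TGACGT, the core of the cyclic AMP response element (CRE) that Atf1 and related bZIP factors bind, were found in 3 of the 7 windows (*SPAC15E1.02c*, *SPAC26H5.09c* and *tsp0*). They were found in 5.89% of 5123 windows of protein-coding genes (302). The letters CCCCT, which zinc-finger factors such as Rst2 recognize, were also found in 3 (*SPCC70.08c*, *SPAC26H5.09c* and *lsd90*), against 10.5% of all windows. The CCAAT box was in 2 of the 7 (*SPAC15E1.02c* and *tsp0*; 42.3% of all windows). TTCTTTG, the core of the TR box of Ste11, was in 2 as well (*SPAC637.03* and *SPAC26H5.09c*; 9.96%), and AGATAA, of GATA-type factors, was in 1 (*tsp0*; 24.4%). A match describes the letters only, and *SPACUNK4.17* held none of the 5 in this window. The CRE and CCCCT matches are shown because those motifs were found in the most windows of the 7 genes. Each is written 5′ to 3′ in the direction of the gene, with the motif in capitals (ACGTCA is TGACGT read from the other strand), and was read from RefSeq build ASM294v3.

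*SPAC15E1.02c*, CRE core 94 bases before the start, I:3721914-3721941, minus strand: acttcatcgacACGTCAaagtgacgccc
*SPAC26H5.09c*, CRE core 194 bases before the start, I:4139269-4139296, minus strand: tatactaataaACGTCAttcattacata
*tsp0*, CRE core 53 bases before the start, II:1224488-1224515, plus strand: cttcccttctgTGACGTaatagacgagg
*SPCC70.08c*, CCCCT motif 175 bases before the start, III:2368826-2368852, minus strand: gaaatttggaaCCCCTaacctttattg
*SPAC26H5.09c*, CCCCT motif 235 bases before the start, I:4139311-4139337, minus strand: ctgaaacgttcCCCCTatctgcatggt
*lsd90*, CCCCT motif 60 bases before the coding start, II:1950300-1950326, minus strand: cgtttaaaaatCCCCTtcttatttatc

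The genes with a CRE core had log2 fold changes of −1.35, −0.95 and −0.98, which span the range of all 7. The members are otherwise unlike in structure. *SPAC15E1.02c*, *SPAC637.03* and *SPACUNK4.17* have a single exon, while *tsp0* has 4. Exon length ran from 580 bases for *SPAC15E1.02c* to 2271 for *lsd90*. Exon GC content was 38.8% to 53.8%, against a median of 37.1% over the loci kept, and that of *lsd90* was above 99.9% of them.

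Genes known to be induced through the stress-activated kinase Sty1 and Atf1, or by general stress, showed the same place of WT2. It was the lowest wild-type library for 14 of 15 such genes listed, against 29.4% of all loci. The exception was *pyp2*, which encodes a phosphatase of Sty1. For 14 of the 15, WT2 was closer to the mutant mean than to that of WT1 and WT3, as it was for 44.2% of all loci. The catalase gene *ctt1* had normalized counts of 4473, 1495 and 3725 in WT1 to WT3 and 2034, 1406 and 2058 in del1 to del3. The trehalose-phosphate synthase gene *tps1* had 9495, 4058 and 8161 against 4931, 3574 and 5093. Of the 15 genes 2 were lower and none higher by edgeR, namely *hsp9*, which encodes a heat shock protein (−1.31, SE 0.32, adjusted p = 0.0258), and *plr1*, which encodes a pyridoxal reductase (−0.49, SE 0.14). That *hsp9* was lower was known from earlier results of these data when the list was made. At an unadjusted p under 0.05 by edgeR, 8 of the 15 were lower and 0 higher. Over all loci 2373 of 5774 were under it, in either direction. DESeq2 called 4 of the 15 lower and limma-voom 2, and neither called any higher. Over all loci DESeq2 called 12.8% lower and limma-voom 4.42%. The 15 genes had a median log2 fold change of −0.48, against 0.01 for all loci. Over all loci, edgeR called 4.99% lower and 16.7% higher. No stress gene was called without WT1 or WT3 or any *siw14*∆ replicate, and 11 were called lower without WT2. The calls over all loci moved alike, with 48, 717 (12.3%) and 44 lower without WT1, WT2 and WT3, and 1 without each *siw14*∆ replicate. Summed over the list, the level was 64326, 31366 and 54822 normalized counts in WT1, WT2 and WT3 and 28811 to 37890 in the *siw14*∆ libraries. Summed over the 7 genes it was 15828, 5663 and 12503 in wild type and 5630 to 5798 in *siw14*∆. Most of this second sum is *SPAC26H5.09c*, with 9401, 3615 and 7391 in wild type and 3497 to 3570 in *siw14*∆. What part the condition of a culture has in either sum was not tested.

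**Figure D4:**
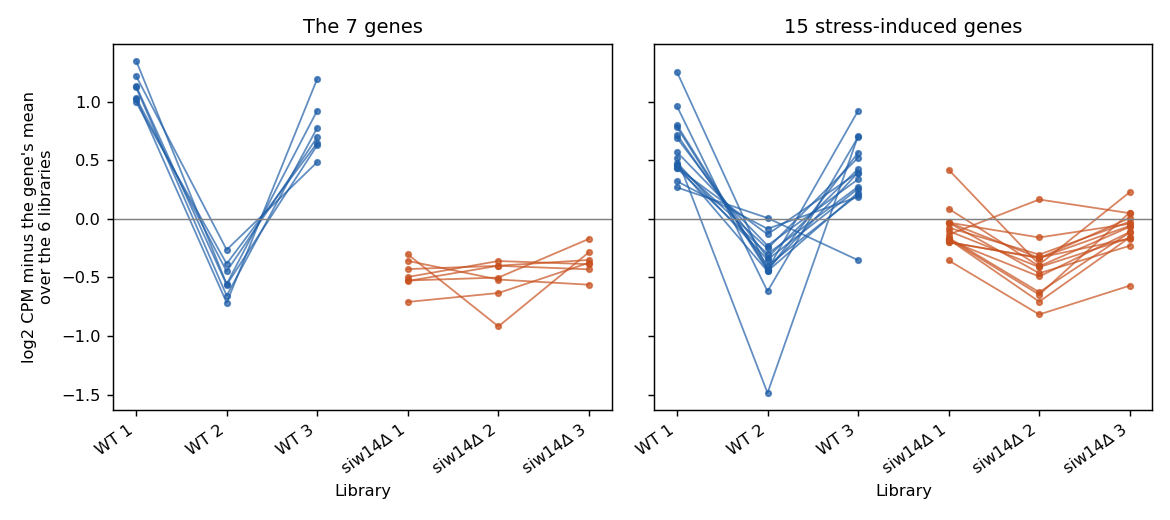
Log2 CPM in each library minus the gene's own mean over the 6 libraries, for the 7 genes (left) and the 15 stress-induced genes (right); thin lines join the values of 1 gene within a genotype and imply no order of the replicates. In the left panel WT1 and WT3 lie above 0 and WT2 with the *siw14*∆ libraries below it; 14 of the 15 stress-induced genes have their lowest wild-type value in WT2.

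The other lists were taken by the kinds of product that the 7 genes have. Of 98 other loci annotated as oxidoreductases or dehydrogenases that passed the filter, 27 fell, 3 rose and 68 did not pass the test. Over all loci, 4.99% were called lower and 16.7% higher. The median log2 fold change of the 98 was −0.24. WT2 was the lowest wild-type library for 61 of them, against 29.4% of all loci. In 5 of the 98, the wild-type mean was at least 100 normalized counts and WT1 and WT3 were both at least 1.5-fold above WT2. Of all loci with such a mean, 1.89% had WT1 and WT3 that far above WT2. The isocitrate dehydrogenase gene *idp1* fell from 6876, 3867 and 4794 to 3295, 3375 and 3175 normalized counts (−0.66, SE 0.17, adjusted p = 0.0288 by edgeR). Without WT1 the log2 fold change of *idp1* was −0.38, and its call was lost without WT3 (adjusted p = 0.0515 by edgeR) or any *siw14*∆ replicate. *SPCC162.03*, annotated as a dehydrogenase, rose (0.71, SE 0.19, adjusted p = 0.0323 by edgeR), and the low *SPAC186.02c* was at 1.46 (SE 0.63) without passing. The 27 calls became 8, 45 and 5 without WT1, WT2 and WT3 and 0 without any *siw14*∆ replicate. Over all loci, 48, 717 and 44 were lower without WT1, WT2 and WT3, and 1 without each *siw14*∆ replicate.

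Methyltransferases other than *SPCC70.08c* lay on the other side. Of 87 that passed the filter 32 rose, none fell and 55 did not pass the test, where 16.7% of all loci were called higher and 4.99% lower. The median log2 fold change of the 87 was 0.25. In none with a wild-type mean of at least 100 normalized counts were WT1 and WT3 both 1.5-fold above WT2. The rRNA methyltransferase gene *rrp8* had normalized counts of 221, 306 and 260 in wild type and 471, 588 and 525 in *siw14*∆ (1.01, SE 0.15, adjusted p = 0.0235 by edgeR). The histone methyltransferase gene *set7* (0.94, SE 0.21) and *mtl16* (0.92, SE 0.26) rose as well. At an unadjusted p under 0.05, 8 were lower by edgeR, where 2373 of 5774 loci were under it in either direction. DESeq2 called 6 lower and limma-voom 0, against 12.8% and 4.42% of all loci. The 32 calls higher became 24, 36 and 16 without WT1, WT2 and WT3, 9 without del1 and 0 without del2 or del3. The loci called higher over the whole table moved alike, from 964 with all libraries. They numbered 785, 1204 and 640 without WT1, WT2 and WT3, 378 without del1 and 0 without del2 or del3. Of 8 genes of heme synthesis, listed because TspO proteins bind tetrapyrroles, *hem2* was lower (−0.32, SE 0.10) and *hem4* higher (0.60, SE 0.13) by edgeR, and WT2 was the lowest wild-type library for 2. With 1 library left out, the call of *hem2* was kept without WT2 and lost in the other 5 fits. That of *hem4* was lost without del2 or del3, where 0 of all loci were called higher. *hem13*, the coproporphyrinogen oxidase gene, was at −0.29 (SE 0.13) without passing.

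Over the 6 libraries, the protein-coding loci most like the mean centered profile of the 7 genes, of 4882 compared, were ranked by Pearson's r of log2 CPM. The first was *cit1*, the citrate synthase gene, with r = 0.9995. It had normalized counts of 10265, 5062 and 8652 in wild type and 5062, 5071 and 5363 in *siw14*∆, a log2 fold change of −0.63 (SE 0.20), which was −0.39 without WT1. The uncharacterized *SPAC57A7.05* (r = 0.9979) had 965, 417 and 846 against 437, 410 and 470, at −0.76 (SE 0.24). The other 4 were *SPACUNK4.15*, *pof11*, *oac1* and *pdx3*, with r of 0.9910 to 0.9931 and log2 fold changes of only −0.36 to −0.23, so they share the shape of the profile but not its size. Each r rests on the same 6 libraries. Ranked instead by the distance between profiles, which also weighs size, 1 of the 6 (*SPAC57A7.05*) was kept, and the others were *SPBC19C7.04c*, *spk1*, *hsp9*, *pbi2* and *ctt1*.

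Beyond the 7 genes, 6 loci had a wild-type mean of at least 100 normalized counts, a wild-type SD of at least 0.72 and a log2 fold change of −0.95 or lower, the values at the edge of the 7. They were the meiotic regulator gene *mei2*, *hsp9*, *rtc3* and the noncoding *omt3*, *SPNCRNA.803* and *SPNCRNA.747*. Of these *rtc3* differed within the mutant too, with 1466, 240 and 1366 normalized counts in wild type and 620, 288 and 597 in *siw14*∆. WT2 was below the other wild-type libraries at each of the 6.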

How the data were processed

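The 6 libraries were stranded, made from poly(A)+ RNA and sequenced in paired-end mode. Reads were aligned to ASM294v2 with HISAT2 2.1.0, and HTSeq 0.10.0 counted them over exons. The deposited counts are raw, per locus and library. The 5 lines without an ID, 31.6% to 35.8% of the counts in the *siw14*∆ columns and empty in the others, were left out. A second deposited table holds the authors' own DESeq2 comparison and was not used. Loci were filtered with filterByExpr and compared with edgeR 4.0.16 (TMM, glmQLFit, glmQLFTest) in R 4.3.3, tested on simulated data; log2 CPM took a prior count of 2. DESeq2 1.42.0, limma-voom (limma 3.58.1), other scalings and filters, a loess trend (span 0.3) over abundance or GC content as an offset, a block and each library left out were alternatives. Names, overlaps and sequences are from RefSeq ASM294v3, to which 6817 of the 6988 IDs matched by ID; it is not the authors' build, and all coordinates given are those of ASM294v3. The members and lists were chosen with earlier results of these data known. Beside the members, genes were named by a rule: overlapping or nearest loci, the 6 most alike profiles, and up to 3 of each list with the largest change; *plr1*, *pyp2*, the genes nearest by distance and loci named for sharing the pattern were chosen after their values were seen. For the list of heme synthesis, *hem4* is the symbol of the listed synthase, and 1 listed gene had no match. A list of DUF family products matched no locus.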

Additional observations from a re-analysis of the deposited data

How the results depend on the processing

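All 7 log2 fold changes were negative under every alternative run. Of the 7 genes, 6 were called lower by edgeR, against 3 by DESeq2, 2 by limma-voom and 1 with library totals only. Once a loess trend on abundance was removed, 0 were called. In that last fit all 7 had an unadjusted p under 0.05 by edgeR, as had 1599 of 5774 loci in either direction. The log2 fold changes of the 7 genes then ran from −1.77 to −0.73 with a median of −1.34, against −1.01. Their calls were thus lost at differences that were on median no smaller. With each library left out in turn the number ran from 0 to 7. Of the genes of the 4 lists, 30 were called lower and 36 higher. The number lower was 53 by DESeq2, 46 with a loess trend on GC removed, 9 with library totals only and 0 once a loess trend on abundance was removed, where 0 were higher. With each library left out in turn, 0 to 59 were lower and 0 to 42 higher. Over all loci, 0 to 1204 were called higher in those fits, against 964 with all libraries and 0 with the abundance trend removed. Of single named genes with the abundance trend removed, *hem2* was at −0.11, *SPCC162.03* at 0.36 and *set7* at 0.62. Over all loci, 288 were lower, against 705 by DESeq2, 495 with DESeq2's size factors, 31 with library totals only, 878 and 1 with the GC and the abundance trend removed. Library totals only move the median of all loci to 0.18. Before the start only, 1 of the 7 windows held the TR box core. The cause of these shifts was not tested. Same-numbered libraries of the genotypes deviated from their group means with correlations of −0.26, 0.18 and −0.16. Differently numbered ones had correlations from −0.36 to 0.44. With 3 libraries a genotype, these values cannot settle whether the numbers pair the libraries. With the replicate number as a block, 5 of the 7 were called lower, and over all loci 156 were lower. The block raised the stress-induced genes called lower from 2 to 7. It cut the other oxidoreductases and dehydrogenases called lower from 27 to 13. With 3 libraries a genotype, spread is known only coarsely.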

Other observations

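Of the 29 loci outside the 7 genes at which WT1 and WT3 were both at least 2-fold above WT2, 18 are protein-coding. At 28 of the 29 the log2 fold change was negative, and 8 were called lower by edgeR, against 4.99% of all loci (288 of 5774). High WT1 and WT3 values also raise the wild-type mean, so negative values follow in part from this choice of loci. Not all of the 29 had *siw14*∆ levels near WT2. The small heat shock protein gene *hsp16* had normalized counts of 954, 236 and 1085 in WT1 to WT3 and 889, 506 and 778 in del1 to del3. The mating pheromone precursor gene *mfm2* had 291, 11.3 and 589 against 450, 189 and 222. The noncoding *SPNCRNA.388* had 1230.0, 102 and 745 against 668, 615 and 603. At these loci WT2 was the lowest of all 6 libraries. They were chosen after their values were seen.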
